A study of Brassica napus with 27 samples.

Results

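The genes described here are those of oilseed rape (Brassica napus) whose identifiers begin with BNAA08G or BNAC08G, which places them by name on chromosomes A08 and C08. A gene was kept when its counts-per-million (CPM) averaged 0.5 or more over 27 leaf RNA-seq libraries. Of 270 such identifiers, 164 were kept, 51 of them A08 and 113 C08, among 119532 gene entries in the count table. The nearest identifiers on either side of that minimum were BNAC08G42060D, left out at 0.472 CPM, and BNAA08G17040D, kept at 0.502 CPM, of the plain library total. Libraries came from leaves of 3 genotypes, each with 9 libraries. The bnaa06fah line is labelled as carrying a CRISPR/Cas9 mutation of BnaA06FAH, the bnafah line as carrying mutations of both BnaA06FAH and BnaC05FAH, and the wild type (WT) is the cultivar Westar. Each genotype was sampled in long days (LD) and after 1 (SD1) and 2 (SD2) short days, with 3 libraries a group. The labels call the lines free of the transgene and both null mutants and knock-downs, and each genotype is 1 line. Growth is labelled alike for all 27 libraries, with the same number of days on medium and 2 weeks in soil. Long and short days are given the same hours of light and dark, so the labels do not show how the day lengths differed. FAH stands for fumarylacetoacetate hydrolase, an enzyme of tyrosine breakdown, and the study addresses cell death when it is lost. The FAH genes are not analysed here, so they give no check of the genotypes.

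Oilseed rape is an allotetraploid that carries an A genome derived from Brassica rapa and a C genome derived from Brassica oleracea. Most genes therefore exist as related A and C copies of similar sequence, and the levels of such copies often differ. Segments of A and C chromosomes are known to exchange in this species, which changes how many copies of each form a plant carries. Only RNA was measured in these libraries. The number of gene copies in the sampled plants was not tested, and how reads were divided between near-identical A and C copies is not given in the sources used here.

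Libraries held 49700648 to 58862553 counts. Replicates of a group correlated at 0.916 to 0.981 in log2 CPM, and the labels do not state whether they are from separate plants. The p-values below thus measure the spread between these libraries, which may be technical. Levels below are CPM on library sizes scaled by the trimmed mean of M-values (TMM). A gene is called changed when edgeR's quasi-likelihood test gave an adjusted p (Benjamini-Hochberg over all 72039 entries tested) under 0.05. The SE given with a log2 fold change is its absolute value divided by the square root of that test's F statistic. It is an approximation and was not estimated by the fit itself. All 164 genes passed the filter on low counts. Replicate 2 of bnafah SD2 stood apart from its group as a whole library. It lay at 0.84 on the second principal component, against 82.9 and 87.7 for replicates 1 and 3. Counts of bnafah against WT in SD2, and of the change of that difference from LD, are given with and without it. Those of bnafah between SD2 and LD, and of bnafah against bnaa06fah, are given only with it. Of a list of leaf genes only 3 plastid genes, rbcL, psbA and psbB, were found, with counts in every library at 0.606 to 12.5 CPM. No gene of the root or flower lists was found, so the leaf label could not be set against those tissues. None of the 164 genes has a gene name in the files or in the RefSeq table of the Da-Ae assembly, so they are given by identifier and no function is assigned. Of the 164 genes, 159 were found there, 157 of these as protein-coding genes. It placed 49 of the A08 genes on A8, 104 of the C08 genes on C8 and 6 on another chromosome. Its gene order and the identifier number had a rank correlation of 0.806 for the A08 genes and 0.770 for the C08 genes, as a description.

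Averaged over the 3 stages, the bnaa06fah line had lower levels of 32 C08 genes and higher levels of 2 than WT, and higher levels of 9 A08 genes and a lower level of 1. These calls are 44 of the 164 genes, against 5.56% of all entries tested. By direction, 2.04% of all entries tested were called higher and 3.53% lower. The median log2 fold change was 0.06 over the A08 genes and -0.22 over the C08 genes, against -0.02 over all entries tested. In such whole-leaf libraries the level of a gene also depends on how many cells express it, and cell composition was not tested. The calls were not spread along the chromosomes. In order of identifier number, all 32 lower C08 genes lay among the 33 genes from BNAC08G30550D to BNAC08G46040D, called the C08 end here. Of the 9 higher A08 genes, 8 lay among the 11 genes from BNAA08G22810D to BNAA08G28750D, called the A08 end here. The other was BNAA08G17040D, which passed the CPM minimum only through the mutant lines. The limits of both ends were set after the fold changes were seen, so the counts within them are a description. No member of either end was called in the opposite direction.

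**Figure D1:**
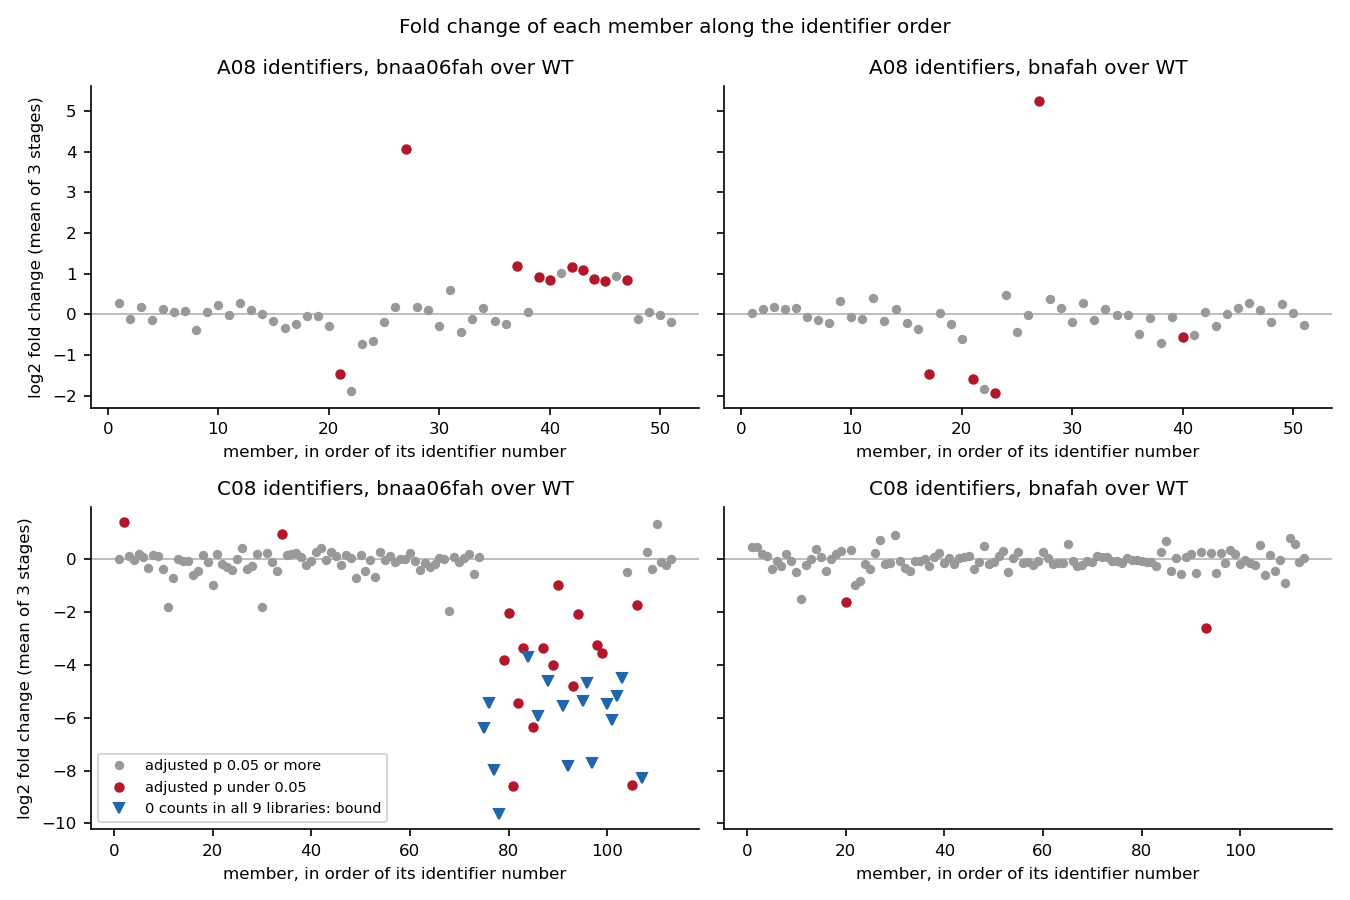
Log2 fold change over WT (mean of 3 stages, vertical axis) of each A08 gene (top row) and C08 gene (bottom row) in order of identifier number, for bnaa06fah (left) and bnafah (right). Red points have an adjusted p under 0.05, and blue triangles are the 17 genes at 0 counts in all 9 bnaa06fah libraries, drawn at the bound that 3 counts per library allow. The low C08 genes and the raised A08 genes stand near the high-number ends of the left panels and are not seen in the right panels.

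At the C08 end, 17 of the 33 genes had 0 counts in all 9 bnaa06fah libraries, while 1.01% of all entries tested were at 0 there. BNAC08G31200D is the one of these with the highest level in the other genotypes. It had 0 counts in each bnaa06fah library, a lowest, median and highest of 23.4, 37.1 and 98.5 CPM in bnafah, and of 22.03, 42.4 and 73.7 CPM in WT. From 3 counts per library, its level was at least 809-fold lower in bnaa06fah than in WT (adjusted p = 9.73185e-15, edgeR quasi-likelihood test). The other 16 genes at 0 had bounds of at least 13.1-fold to at least 315-fold lower, set by how high each gene stood in WT. BNAC08G46040D, the last gene of the end, had 0 counts in each bnaa06fah library and ran from 8.45 to 26.4 CPM in WT around a median of 19.3, at least 315-fold lower. BNAC08G30980D was at least 249-fold lower, with 9.86, 12.4 and 21.5 CPM as its lowest, median and highest WT values. BNAC08G36200D was at least 226-fold lower, with 9.96, 12.7 and 16.4 CPM in WT. BNAC08G30550D, the first gene of the end, was at least 84.7-fold lower, with 1.86, 5.57 and 7.44 CPM in WT. For 16 of these 17 genes every WT library held counts, and the exception was BNAC08G35330D, whose WT values began at 0. The authors' FPKM table (fragment counts scaled by gene length and depth) listed the same 17 genes at 0 in all 9 bnaa06fah libraries.

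One further gene of the C08 end, BNAC08G43330D, had 2 counts over the 9 bnaa06fah libraries and 813 over the WT libraries. That is 0.254% of its WT level, with an exact 95% interval of 0.0307% to 0.919% that covers counting error only. The other 15 genes of the end kept more than 3 counts in bnaa06fah, and their levels ran from 0.256% to 70.8% of WT with a median of 9.69%. BNAC08G32700D, one of the 3 C08 genes with most counts, was the lowest of them. Its lowest, median and highest values were 0.31, 0.45 and 0.90 CPM in bnaa06fah, 128, 170.0 and 289 CPM in bnafah, and 90.3, 196 and 318 CPM in WT. No bnaa06fah library came near the other genotypes, and the log2 fold change against WT was -8.58 ± 0.28 (SE; adjusted p = 2.59485e-16, edgeR). BNAC08G32890D, the C08 gene with most counts, had 3.35, 5.43 and 12.4 CPM in bnaa06fah, 105, 261 and 323 CPM in bnafah, and 129, 244 and 370.2 CPM in WT. Its bnaa06fah libraries kept 2.34% of the WT mean, a log2 fold change of -5.46 ± 0.23 (SE; adjusted p = 1.4738e-14, edgeR). Per gene length, the authors' FPKM values averaged 0.691 in bnaa06fah and 278 in WT for BNAC08G32700D, and 6.97 and 311 for BNAC08G32890D.

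Between these extremes the genes of the C08 end kept different shares of their WT level. BNAC08G35320D kept 9.69%, at 6.33, 8.04 and 10.1 CPM in bnaa06fah and 70.4, 80.1 and 106 CPM in WT. BNAC08G31680D kept 24.1%, BNAC08G36500D 24.9% and BNAC08G45520D 31.3%, all 3 with no overlap between the 9 bnaa06fah and the 9 WT libraries. BNAC08G36090D kept 48.2% and its libraries did overlap, at 3.75 to 7.42 CPM in bnaa06fah and 5.46 to 18.8 CPM in WT, though it was called lower (log2 fold change -0.997 ± 0.19, SE; adjusted p = 0.00108293, edgeR). BNAC08G42620D was the only gene of the end that was not called. It had 1.19, 2.06 and 2.91 CPM in bnaa06fah and 2.27, 2.40 and 4.09 CPM in WT, and its adjusted p was 0.12 (edgeR). In all, 29 of the 33 genes did not overlap between bnaa06fah and WT and lay lower, against 1.64% of all entries tested. The median fitted log2 fold change over the 33 genes was -8.58, and -5.18 with the genes at 0 set to their bound.

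Genes of the A08 end moved the other way and over a narrow range. Their fold over WT in bnaa06fah ran from 1.13 to 2.42, with a median of 1.88 and a median log2 fold change of 0.91. BNAA08G26490D, the A08 gene with most counts, had a lowest, median and highest of 701, 1011 and 1208 CPM in bnaa06fah, 131, 442 and 584 CPM in bnafah, and 330.1, 511 and 605 CPM in WT. Every bnaa06fah library lay above every library of the other genotypes, with a log2 fold change of 1.10 ± 0.22 over WT (SE; adjusted p = 0.00225078, edgeR). Its FPKM values in the authors' table averaged 1062 in bnaa06fah and 509.97 in WT.

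BNAA08G22810D, the first gene of the A08 end, had 67.1, 79.8 and 95.2 CPM in bnaa06fah, 15.1, 34.0 and 49.8 CPM in bnafah, and 25.5, 35.7 and 49.6 CPM in WT. It had the largest fold of the called genes of the end, with a log2 fold change of 1.19 ± 0.14 over WT (SE; adjusted p = 1.73557e-06, edgeR). BNAA08G26230D had 5.72, 7.25 and 10.4 CPM in bnaa06fah and 1.88, 3.54 and 5.03 CPM in WT, a log2 fold change of 1.15 ± 0.16 (SE; adjusted p = 1.1291e-05, edgeR). BNAA08G22950D had 6.74, 7.58 and 10.3 CPM in bnaa06fah and 3.47, 4.02 and 5.04 CPM in WT, a log2 fold change of 0.91 ± 0.11 (SE; adjusted p = 2.61732e-06, edgeR). BNAA08G28750D, the last gene of the end, had 19.7, 24.2 and 28.9 CPM in bnaa06fah and 9.90, 13.3 and 17.9 CPM in WT, a log2 fold change of 0.85 ± 0.12 (SE; adjusted p = 1.31191e-05, edgeR). None of these 4 genes overlapped between the 9 bnaa06fah and the 9 WT libraries. Without overlap and higher were 6 of the 11 genes of the A08 end, against 0.712% of all entries tested. BNAA08G24300D and BNAA08G27080D were called higher although their libraries overlapped with WT. The 3 genes that were not called were BNAA08G22930D (log2 fold change 0.07), BNAA08G26040D (1.01, adjusted p = 0.068, edgeR) and BNAA08G27180D (0.96), of which BNAA08G27180D was at 0 in libraries of each genotype.

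**Figure D2:**
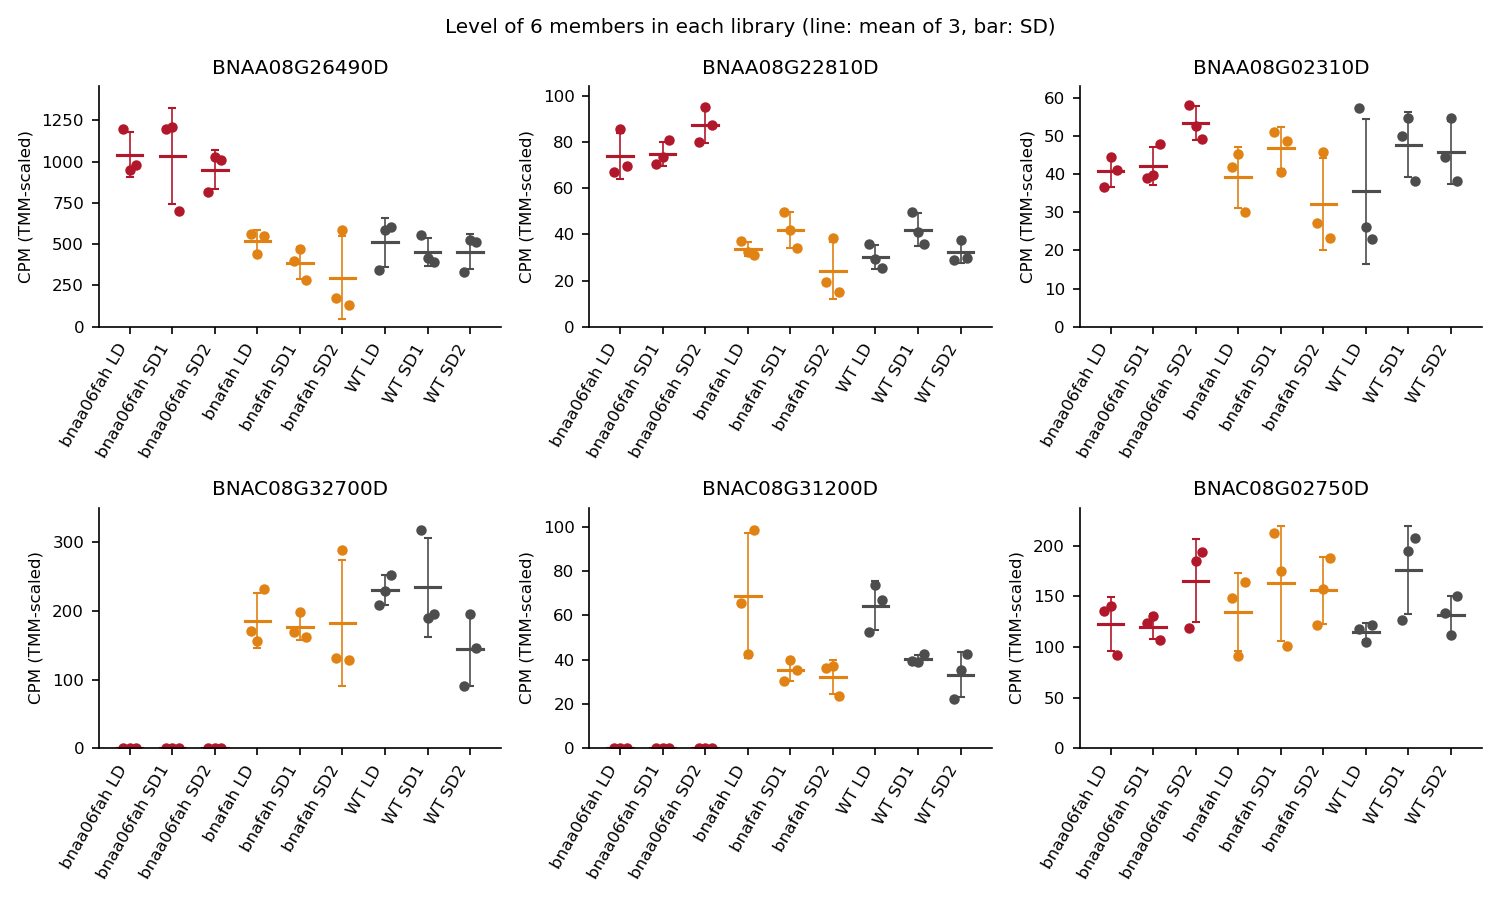
Level in each library (TMM-scaled CPM, vertical axis, each panel with its own scale) of 3 A08 genes (top) and 3 C08 genes (bottom) in bnaa06fah, bnafah and WT at LD, SD1 and SD2. Points are libraries, lines are means and bars SD of 3. BNAA08G26490D and BNAA08G22810D stand higher in bnaa06fah, BNAC08G32700D and BNAC08G31200D lie at or near 0 there, and BNAA08G02310D and BNAC08G02750D, outside both ends, overlap in all 3 genotypes.

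Outside both ends the medians lay near that of all entries. Over the other 40 A08 genes the median log2 fold change was -0.05, and over the other 80 C08 genes -0.02. BNAA08G02310D, the third A08 gene by counts, had 36.6, 44.5 and 58.0 CPM in bnaa06fah and 23.0, 44.3 and 57.3 CPM in WT, with a log2 fold change of 0.08 ± 0.16 (SE). BNAC08G02750D, the second C08 gene by counts, had 92.1, 131 and 194 CPM in bnaa06fah and 105, 127 and 208 CPM in WT, with a log2 fold change of -0.04 ± 0.16 (SE). The genotypes overlapped for both. Of the 120 genes outside the ends 4 were called (3.33%), against 5.56% of all entries tested. BNAC08G17670D had 5.31, 6.73 and 8.95 CPM in bnaa06fah and 1.95, 3.65 and 4.99 CPM in WT, without overlap, a log2 fold change of 0.95 ± 0.18 (SE; adjusted p = 0.000685969, edgeR). BNAC08G01300D was called higher at 0.62, 1.42 and 1.74 CPM in bnaa06fah and 0.16, 0.34 and 0.99 CPM in WT. BNAA08G17040D and BNAA08G13840D are described below, because both were also called in bnafah.

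The change at the C08 end was sharp in gene order. BNAC08G30470D, the member just before the end, had 1.38, 1.88 and 5.21 CPM in bnaa06fah and 0.97, 2.38 and 2.94 CPM in WT, and the next member, BNAC08G30550D, was at 0 in bnaa06fah. In the Da-Ae gene order 5 further tested entries lie between those 2 genes and none of the 5 was called. Of the 100 entries before BNAC08G30550D in that order, members left out, 1 was called lower in bnaa06fah, and their median log2 fold change was -0.04. Of the 956 entries between the limits of the C08 end that are not members, 799 (83.6%) were called lower, 1 was called higher and 375 (39.2%) were at 0 counts in all 9 bnaa06fah libraries. Their median fitted log2 fold change was -5.55 in bnaa06fah and 0.04 in bnafah. The stretch was not even. From BNAC08G30550D to BNAC08G41140D, 596 of 681 such entries (87.5%) were called lower and 43.0% were at 0, with a median of -5.98. From BNAC08G42620D to the end of C8, 106 of 168 non-members (63.1%) were called lower and 13.7% were at 0, with a median of -1.04. This second portion includes 15 entries beyond BNAC08G46040D. Entries between BNAC08G41140D and BNAC08G42620D are in neither portion, and both portions were set with the values of the members known. BNAC08G42620D, the one uncalled member of the end, stands at the start of the second portion.

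On A8 the change began before the first raised member. Between BNAA08G20710D, which was not called (log2 fold change -0.24), and BNAA08G22810D, the Da-Ae order holds 135 tested entries that are not members. The first of them to be called higher in bnaa06fah was the 18th, and the list was split there after the values were seen. From the 18th on, 73 of 118 (61.9%) were called higher, with a median log2 fold change of 0.96. The median of the 17 before it was -0.31, and that none of those was called higher follows from the split. Between the limits of the A08 end 290 of 474 such entries (61.2%) were called higher and none was called lower. Their median log2 fold change was 0.91 in bnaa06fah, the same as that of the 11 members, and 0.01 in bnafah. The last members by identifier number, from BNAA08G28790D to BNAA08G30350D, were not called. Of these, BNAA08G28790D lies beside BNAA08G28750D in the Da-Ae order, with a log2 fold change of -0.11 ± 0.46 (SE), while BNAA08G29280D and BNAA08G29770D lie early on A8 and BNAA08G30350D is placed on A9 there. Similarly, the 6 C08 members after BNAC08G46040D, from BNAC08G47370D to BNAC08G48000D, were not called. The Da-Ae order places 5 of them on C8 beside members of far lower number, between BNAC08G09400D and a little beyond BNAC08G10430D, and BNAC08G47840D is not placed on C8 there. These Da-Ae entries were looked at after the values of the members were seen.

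**Figure D3:**
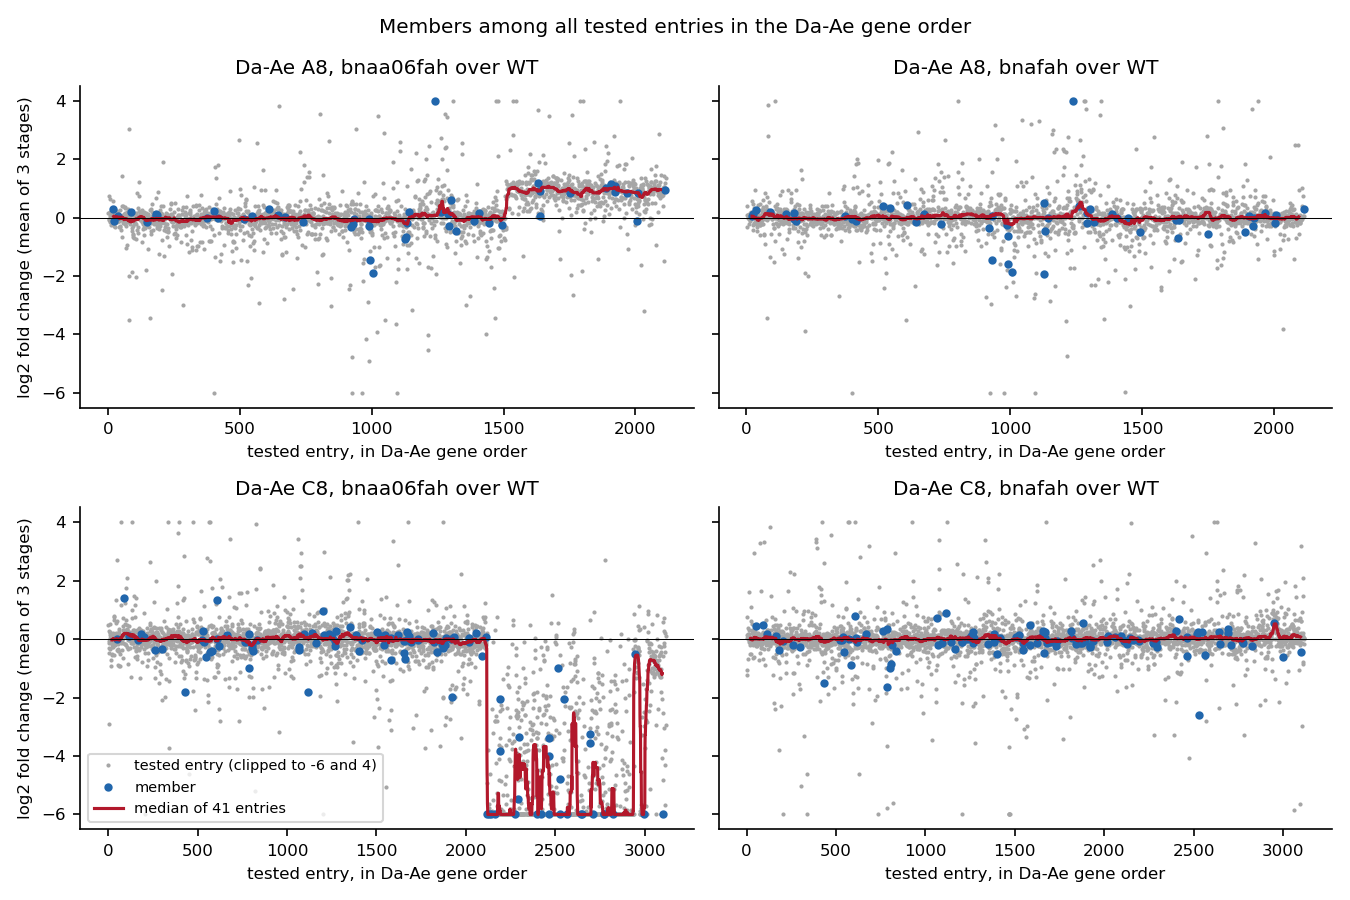
Log2 fold change over WT (mean of 3 stages, vertical axis, drawn no lower than -6 and no higher than 4) of every tested entry on A8 (top) and C8 (bottom) in the Da-Ae gene order, for bnaa06fah (left) and bnafah (right). Grey points are entries, blue points the genes with A08 or C08 identifiers and the red line the median of 41 entries. The line steps up near the end of A8 and down near the end of C8 in bnaa06fah and stays near 0 in bnafah.

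Summed over genes, the 11 genes of the A08 end made up 1171 ± 169 CPM in bnaa06fah, 474 ± 175 CPM in bnafah and 551 ± 101 CPM in WT (SD, n = 9 each). The 9 bnaa06fah sums ran from 871 to 1359 CPM and lay above all 18 others, the highest of which was 667 CPM. Much of that sum is 1 gene, BNAA08G26490D. The 33 genes of the C08 end made up 33.1 ± 5.8 CPM in bnaa06fah, 755 ± 155 CPM in bnafah and 791 ± 152 CPM in WT. The bnaa06fah sums ran from 27.8 to 45.6 CPM, and the lowest sum in the other genotypes was 509 CPM. For the other A08 genes the sums were 353 ± 14 CPM in bnaa06fah, 344 ± 16 CPM in bnafah and 358 ± 21 CPM in WT, and they overlapped, as did those of the other C08 genes at 746 ± 55, 740.3 ± 73.2 and 770.4 ± 82.9 CPM.

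Over all tested entries that the Da-Ae order places within the limits of the ends, members included, the shift was of the same kind. The 486 entries of the A08 end summed to 15664 ± 1083 CPM in bnaa06fah, 8181 ± 952 CPM in bnafah and 8139 ± 553 CPM in WT (SD, n = 9 each). The 986 entries of the C08 end summed to 3055 ± 199 CPM in bnaa06fah, 15520.1 ± 1611 CPM in bnafah and 15240.1 ± 739 CPM in WT. Both ends together came to 18718 ± 1228 CPM in bnaa06fah, 23701 ± 2477 CPM in bnafah and 23380 ± 1213 CPM in WT. The 9 bnaa06fah sums of both ends ran from 17059 to 20788 CPM, below the lowest WT sum of 21205 CPM, while the bnafah sums began at 20540.3 CPM. These sums are descriptions of entries chosen after the values were seen.

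**Figure D4:**
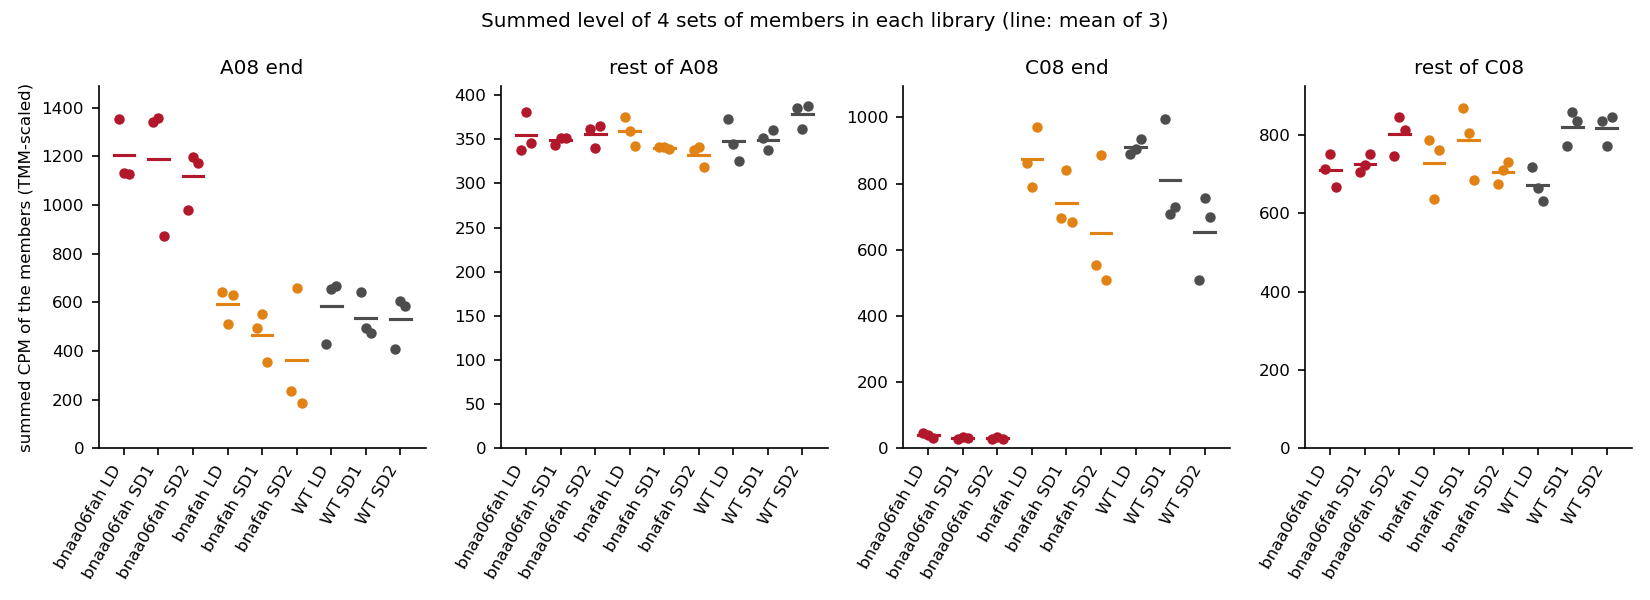
Summed level (TMM-scaled CPM, vertical axis, each panel with its own scale) of the 11 genes of the A08 end, the other 40 A08 genes, the 33 genes of the C08 end and the other 80 C08 genes in each library, by genotype and stage. Points are libraries and lines means of 3. In bnaa06fah the A08 end lies at 871 to 1359 CPM and the C08 end at 27.8 to 45.6 CPM, apart from the other genotypes.

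Calls in bnaa06fah were made at every stage. In LD, 5 A08 genes were higher and 1 was lower, and 30 C08 genes were lower and none higher, against 2.98% of all entries tested (1.06% higher and 1.91% lower). In SD1, 5 A08 genes were higher, 1 C08 gene was higher and 32 C08 genes were lower, against 3.07% of all entries (0.823% higher and 2.24% lower). In SD2, 4 A08 genes were higher and 1 lower, and 30 C08 genes were lower and none higher, against 2.56% (0.683% higher and 1.88% lower). The A08 counts at single stages moved with 1 library left out, to as few as 2 in LD, without WT LD replicate 3, and 3 in SD1 and in SD2. They fell to 3 without WT LD replicate 2 or bnaa06fah LD replicate 2 in LD, without WT SD1 replicate 2, WT SD1 replicate 3 or bnaa06fah SD1 replicate 1 in SD1, and without WT SD2 replicate 1, WT SD2 replicate 3 or bnaa06fah SD2 replicate 1 in SD2. DESeq2 called 8 A08 genes in SD1 and 8 in SD2. The C08 counts ran from 29 to 33 with each library left out in turn. Of the 33 genes of the C08 end, 29 were called lower at all 3 stages. The median log2 fold change of the 11 genes of the A08 end was 0.88 in LD, 1.00 in SD1 and 0.94 in SD2. When the difference between bnaa06fah and WT in SD2 was set against that in LD, edgeR called 0 of the 164 genes and 0 of all entries tested. Of the 164 genes 12 (7.32%) had an unadjusted p under 0.05 in that comparison, against 8.59% of all entries tested, and DESeq2 called 0.

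In bnafah fewer of the 164 genes differed from WT than in bnaa06fah. Averaged over stages, 1 A08 gene was higher and 4 were lower than in WT, and 2 C08 genes were lower. These are 4.27% of the 164 genes, against 2.57% of all entries tested (1.39% higher and 1.18% lower). Over the 33 genes of the C08 end the median log2 fold change was -0.07 and 1 gene was lower, and over the 11 genes of the A08 end it was -0.07 and 1 gene was lower. No A08 or C08 gene separated the 9 bnafah from the 9 WT libraries without overlap, in either direction, against 0.378% of all entries tested higher and 0.287% lower. The lines were also compared with each other. In bnaa06fah 9 genes of the A08 end were higher than in bnafah, 32 genes of the C08 end were lower, and BNAC08G01300D and BNAC08G17670D were higher, against 5.88% of all entries tested (2.13% higher and 3.75% lower). BNAC08G36260D was the only gene of the C08 end not called in that comparison.

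BNAC08G36260D, BNAA08G13840D and BNAA08G17040D were called in the same direction against WT in each line, in comparisons that share the WT libraries. Their values are given side by side. BNAA08G24300D, a gene of the A08 end, was called in opposite directions, higher in bnaa06fah and lower in bnafah. Its log2 fold changes were 0.85 and -0.56 (adjusted p = 4.4773e-05 and 0.015, edgeR). The bnafah call of BNAA08G24300D was lost in 1 of 24 alternatives, the fit of the line and WT libraries alone. BNAC08G36260D had 0, 0.21 and 0.93 CPM as lowest, median and highest in bnaa06fah, 0.12, 0.63 and 5.89 CPM in bnafah, and 0.07, 3.88 and 19.2 CPM in WT. Its log2 fold change was -4.79 ± 0.78 in bnaa06fah and -2.61 in bnafah (SE; adjusted p = 0.000162375 and 0.037, edgeR), and its WT libraries overlapped with both lines. The bnafah call of BNAC08G36260D was lost in 14 of 24 alternatives, where its adjusted p reached 0.103 (edgeR). BNAA08G13840D had 2.04, 6.02 and 8.53 CPM in bnaa06fah, 1.25, 4.78 and 13.8 CPM in bnafah, and 4.54, 11.8 and 59.5 CPM in WT, with log2 fold changes of -1.47 and -1.58 (adjusted p = 0.015 and 0.018, edgeR), and its bnafah call was lost in 1 alternative, the fit of the line and WT libraries alone. BNAA08G17040D had 0, 0.23 and 1.88 CPM in bnaa06fah, 0, 0.91 and 2.24 CPM in bnafah, and 0, 0 and 0.22 CPM in WT. It was called higher in both lines with fitted log2 fold changes of 4.07 and 5.26 (adjusted p = 0.032 and 0.0080, edgeR), on few counts, and the bnaa06fah call was lost in 9 of 24 alternatives, among them leaving out any 1 of the 3 WT LD libraries. No WT library of BNAA08G17040D reached 0.5 CPM, so the gene was kept only through the 2 lines. Its higher level there was thus partly a condition of its choice.

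At the single stages, edgeR called none of the 164 genes between bnafah and WT in LD, against 0.652% of all entries tested (0.400% higher and 0.253% lower), and none in SD1, against 0.565% (0.353% higher and 0.212% lower). Unadjusted p-values under 0.05 numbered 17 (10.4%) in LD, against 11.4% of all entries tested, and 13 (7.93%) in SD1, against 5.95%. DESeq2 called 1 gene in LD and 2 in SD1. In SD2, 4 genes were higher and 9 lower in bnafah than in WT, which is 7.93% of the 164 genes against 6.80% of all entries tested (3.49% higher and 3.31% lower). The called genes were 8 A08 and 5 C08 genes, and 1 of those 5 lay in the C08 end. BNAC08G12910D had 4.68, 6.46 and 4.86 CPM in the 3 bnafah SD2 libraries and 62.9, 18.1 and 84.1 CPM in the WT ones, without overlap (log2 fold change -3.37; adjusted p = 0.0010, edgeR). BNAC08G09550D had 62.0, 21.8 and 47.3 CPM in bnafah SD2 and 7.96, 14.3 and 13.0 CPM in WT SD2, also without overlap (log2 fold change 1.89; adjusted p = 0.0092, edgeR). BNAC08G38150D, at 0 in bnaa06fah, had 6.13, 9.08 and 5.73 CPM in bnafah SD2 and 16.3, 10.4 and 13.8 CPM in WT SD2, without overlap (log2 fold change -0.95; adjusted p = 0.018, edgeR).

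Of the 13 SD2 calls, 3 (BNAC08G12910D, BNAA08G13080D and BNAA08G13840D) held in all 24 alternatives, each left-out library included, and 10 were lost in at least 1. Replicate 2 of bnafah SD2 often stood apart from replicates 1 and 3, as for BNAA08G26490D at 173, 584 and 131 CPM in replicates 1, 2 and 3. Without it, 15 A08 and 19 C08 genes were called. Without replicate 1 of bnafah SD2, 2 A08 genes and 1 C08 gene were called, and without replicate 3, 2 and 3. Among WT SD2 libraries, leaving out replicate 1 gave 2 A08 and 2 C08 genes, replicate 2 gave 5 and 11, and replicate 3 left 2 A08 genes. The counts of A08 genes called in SD2 were also lower without WT LD replicate 2 (4), WT LD replicate 3 (5) and bnafah LD replicate 2 (4). Set against LD, the bnafah minus WT difference in SD2 was called changed for 12 genes, 4 upward and 8 downward, against 6.17% of all entries tested (3.47% and 2.71%).

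Between SD2 and LD within a genotype, 8 of the 164 genes were higher and 8 lower in bnaa06fah, against 9.97% of all entries tested (5.06% higher and 4.91% lower). In bnafah 12 were higher and 16 lower, against 15.7% (8.87% higher and 6.88% lower), and in WT 11 were higher and 5 lower, against 5.87% (3.22% higher and 2.65% lower). BNAA08G26040D, a gene of the A08 end, fell in SD2 by 2.30 on the log2 scale in bnaa06fah and by 1.83 in bnafah. BNAC08G36500D was the only gene of the C08 end to change between SD2 and LD in bnaa06fah, where it fell by 1.48. In bnafah 3 genes of the C08 end were higher and 4 lower in SD2 than in LD. These bnafah counts include replicate 2 of bnafah SD2, which stood apart from its group. These stage genes were chosen after their values were seen.

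Set beside the other chromosomes, A08 and C08 identifiers had the highest shares of called genes in bnaa06fah. Each chromosome is represented here only by entries that name it in their identifier and reach the CPM minimum. These numbered from 51 for A08 to 176 for C05, among 57955 entries at or over that minimum. Averaged over stages 19.6% of the A08 genes and 30.1% of the C08 genes were called against WT, while the other 17 chromosomes had 0% to 7.41%. The closest was A04, with 4 of 54 genes called. Of A03 genes 6 of 130 were called and of A09 genes 8 of 144. The higher calls of A08, 17.6% of its genes, and the lower calls of C08, 28.3%, were the highest shares in their direction. Of these entries over all 19 chromosomes, 19 were at 0 in all bnaa06fah libraries, and 17 of the 19 had C08 identifiers. Over all 72039 entries tested 729 were at 0 there, most of them outside this comparison of identifiers. In bnafah, A08 had 9.80% and C08 1.77% of genes called, against 0% to 6.06% on the other chromosomes. This is a comparison of shares with no test.

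**Figure D5:**
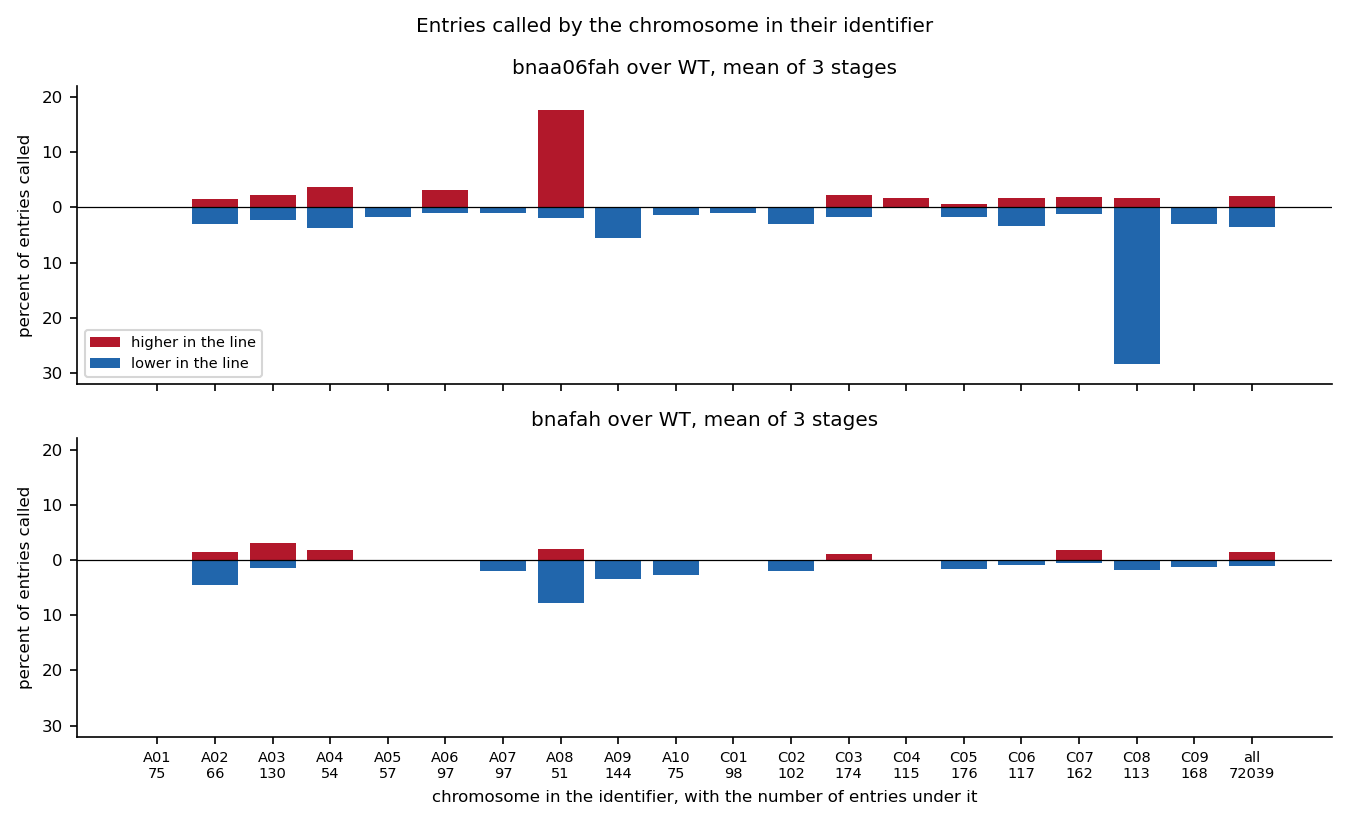
Percent of entries called higher (red, upward) and lower (blue, downward) than WT, mean of 3 stages, by the chromosome in the identifier, for bnaa06fah (top) and bnafah (bottom), with all tested entries as the last bar and the number of entries under each name. In bnaa06fah A08 has the tallest upward bar at 17.6% and C08 the longest downward bar at 28.3%.

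In windows of 41 consecutive members by identifier number, the median log2 fold change in bnaa06fah reached -5.46 on C08, and 22 of 73 windows, all adjoining, lay beyond 0.5 from 0. On A08 the 11 windows ran from 0.02 to 0.07, since each window holds 41 of the 51 genes and the A08 end has 11. In windows of 21 members, 6 of 31 A08 windows lay beyond 0.5 with a highest median of 0.83, and 31 of 93 C08 windows did. In windows of 81 members none of the 33 C08 windows did, with a lowest median of -0.43. No window of 21, 41 or 81 genes lay beyond 0.5 in bnafah, where medians of 41 members ran from -0.10 to -0.05.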

How the data were processed

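RNA-seq of 27 leaf libraries (9 groups of 3) was analysed from 2 deposited tables. Per the labels' protocols, total RNA was extracted with TRIzol and libraries were made with the TruSeq kit. Trim Galore and HISAT2 are named for trimming and alignment, per the submitters' processing notes. What counted the reads, on which build and in which versions, was not given in the sources used here. Per gene, the deposited count table holds raw counts made by the authors, whole numbers not scaled to depth, and 1 entry without a gene name (at most 0.0000261% of counts) was left out. The deposited FPKM table was made by the authors by a method not stated, and served only as a check of levels. There were 0 unused columns.

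Counts were fitted in R 4.3.3 with edgeR 4.0.16 (filterByExpr by group, TMM factors of 0.862 to 1.14, robust quasi-likelihood fit of the 9 groups, 18 residual degrees of freedom), with Benjamini-Hochberg adjustment over the 72039 entries tested. Stage-averaged contrasts are the mean of the LD, SD1 and SD2 differences. In counts simulated from the fitted model itself, the median of moderate fold changes planted in 200 genes was recovered. No loss to 0 counts was planted, so that check does not cover the genes at 0. Alternatives were DESeq2 1.42.0, other scalings, no low-count filter, a mean CPM minimum of 2, the line and WT libraries alone, a replicate block, members placed on their own chromosome in Da-Ae (added after seeing the data), and leaving out each library. Members and lists were chosen with earlier results of these data known. Genes named are, per line, chromosome and direction, the 4 of largest called fold with the same sign at all stages, at least 5 CPM in the higher genotype and no overlap, the 3 with most counts per chromosome and the genes at the limits of the ends. No bnafah gene met that rule, and further genes were chosen after their values were seen. Among the marker lists, rbcL, psbA, psbB, CesA4, CesA7 and CesA8 were found, with 0 entries for all others. The CesA genes, which act in secondary cell walls, lay at 0.503 to 12.3 CPM.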

Additional observations from a re-analysis of the deposited data

Results flagged for a closer look

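In 12 of the 164 genes the difference between bnafah and WT in SD2 was called against that in LD (edgeR quasi-likelihood interaction test, adjusted p under 0.05), against 6.17% of all entries tested. The values are the bnafah minus WT log2 difference in SD2 minus that in LD. Of A08 genes it was -2.01 for BNAA08G08490D, -4.36 for BNAA08G13080D, -4.41 for BNAA08G13840D, -0.93 for BNAA08G15670D, 2.11 for BNAA08G18080D and 1.17 for BNAA08G27080D. Of C08 genes it was 1.56 for BNAC08G00630D, 2.35 for BNAC08G09550D, -3.93 for BNAC08G12910D, -0.77 for BNAC08G21150D, -1.93 for BNAC08G23380D and -1.20 for BNAC08G38150D. These were 4 higher and 8 lower. Each of the 12 calls was lost in 4 to 15 of 24 alternatives, and with 1 library left out the count ran from 0 to 12 on A08 and from 0 to 17 on C08.

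BNAC08G12910D had 16.7, 29.9 and 22.4 CPM in bnafah LD and 13.0, 23.9 and 9.76 CPM in WT LD, where the genotypes overlapped, and 4.68 to 6.46 CPM in bnafah SD2 against 18.1 to 84.1 CPM in WT SD2. BNAA08G18080D had 2.71, 4.15 and 5.55 CPM in bnafah LD, below all of 7.79, 8.91 and 8.09 CPM in WT LD, and 17.5, 7.44 and 13.9 CPM in bnafah SD2 against 5.09, 8.01 and 4.90 CPM in WT SD2. In SD2 replicate 2 of bnafah lay within the WT range and the other bnafah libraries above it. BNAA08G13080D stood at 0.05, 0.11 and 0 CPM in bnafah SD2 and 1.81, 0.71 and 1.83 CPM in WT SD2, so its value rests on few counts in bnafah. No cause was tested for any of the 12.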

How the results depend on the processing

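Averaged over stages, leaving out each library in turn left 32 to 33 lower C08 genes and 8 to 10 higher A08 genes, and of the genes named for bnaa06fah only BNAA08G17040D lost its call in any alternative. No gene called averaged over stages changed sign in any alternative, and sign changes of uncalled genes were not counted. Depth limits the 17 genes at 0 to bounds, and low genes to wide errors.

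With DESeq2 the called A08 genes in bnaa06fah numbered 8 in SD1 and 8 in SD2, and with the line and WT libraries alone 9 in SD2. The C08 median in bnaa06fah was -0.082 with a mean CPM minimum of 2. For bnafah, DESeq2 called 1 A08 gene in LD, 2 in SD1, 4 lower C08 genes averaged over stages, 13 C08 genes in SD2 and 12 for the change from LD to SD2. Without the low-count filter there were 5 A08 genes in SD2 and 1 lower C08 gene averaged over stages. With the line and WT libraries alone there were 0 lower A08 genes and 1 lower C08 gene averaged over stages, 2 A08 genes in SD2, and 0 A08 and 1 C08 gene for the change. The cause of these shifts was not tested.

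Leaving out 1 library gave these ranges. In bnaa06fah the lower A08 genes numbered 1 to 2 (2 without WT SD2 replicate 1), and the C08 median ran from -0.26 to -0.15 (-0.15 without WT LD replicate 1, -0.17 without WT SD2 replicate 3). Called A08 genes in bnaa06fah numbered 2 to 6 in LD, 3 to 5 in SD1 and 3 to 6 in SD2, with 1 library left out, as named above. In bnafah averaged over stages, higher A08 genes numbered 1 to 2 and higher C08 genes 0 to 3, with 2 and 3 without bnafah SD2 replicate 2. Lower A08 genes numbered 2 to 5 (2 without WT SD1 replicate 3, WT SD2 replicates 1 or 3, bnafah LD replicate 2, bnafah SD1 replicate 1 or bnafah SD2 replicate 3). Lower C08 genes numbered 0 to 5 and left 2 only without WT SD1 replicate 2 or WT SD2 replicate 2. Called A08 genes in bnafah SD1 numbered 0 to 1 (1 without replicate 1 of bnafah SD1 or SD2). In bnafah SD2 the called genes numbered 2 to 15 on A08 and 1 to 19 on C08. For the change from LD to SD2 they numbered 0 to 12 and 0 to 17, with 12 and 17 without bnafah SD2 replicate 2, and 0 A08 genes without WT LD replicate 3, WT SD2 replicates 1 or 3, bnafah LD replicate 1, or bnafah SD2 replicates 1 or 3. There were 3 A08 genes without WT LD replicate 2 or bnafah LD replicate 2, and 0 or 1 C08 genes without any 1 of these 8 libraries.

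Libraries that share a replicate number were weakly correlated, in both directions, which does not settle whether the numbers pair them. Over 18 pairs of groups and numbers, deviations from the group means correlated at -0.297 to 0.279, 7 pairs over 0.1, and 10 libraries correlated best with their own number. With the replicate block, bnafah had 4 called A08 genes in SD2 and 3 C08 genes for the change from LD to SD2, and the other counts stayed within 1.5 times.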
